A study of Mus musculus with 6 samples.

Results

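Fatty acids are burned in mitochondria and, for very long and branched chains, shortened first in peroxisomes, and the transcripts of both routes were measured here in 2 kinds of cultured mouse CD8+ T cells. The set held 42 genes, chosen by name from the enzymes of fatty acid oxidation, the proteins that build peroxisomes, and regulators of both. All probe sets whose platform gene symbol was one of these names were taken, which gave 74 probe sets for 41 genes out of 36899 probe sets and 15964 named genes on the arrays. Hadha was not matched to a probe set, and Cpt1b was matched only by probe sets that also carry other symbols. By role, 21 genes were mitochondrial, 15 peroxisomal and 6 regulators.

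The cells came from female mice of the P14 line on the C57Bl/6 background, whose transgenic T cell receptor recognises a viral peptide, from the glycoprotein of lymphocytic choriomeningitis virus. For both groups, cells of spleen and lymph nodes were stimulated with that peptide for 2 days and then kept in a cytokine for 7 days. Central memory (CM) cells were kept in IL-15 and sorted for high CD62L, and effector/effector memory (E/EM) cells were kept in IL-2 and sorted for low CD62L, so cytokine and sort gate differ together between the groups. Each kind was hybridised to 3 array types (SubA, SubB and SubC) with 1 array per kind and type. There were no replicates. Neither the number of animals nor whether 1 RNA preparation served all 3 array types is stated. No test was possible and no p-value is given. The differences below describe these 6 arrays.

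In mitochondrial beta-oxidation the carnitine shuttle brings activated fatty acids through the membranes, after which acyl-CoA dehydrogenases, hydratases, hydroxyacyl-CoA dehydrogenases and thiolases remove acetyl-CoA units in repeated rounds, and electrons leave through the electron transfer flavoprotein. Peroxisomes run a related cycle that starts with oxidases in place of dehydrogenases. Their proteins are imported by the peroxins, and fatty acids enter through ABC transporters. Memory CD8+ T cells are known for their use of fatty acid oxidation, and effector cells for glycolysis.

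Signals are given as deposited, on a linear scale, and log2 ratios divide the CM by the E/EM signal of 1 array type, so values below 0 stand for lower signals in CM cells. A probe set counted as measured where both arrays exceeded a floor set from bacterial control probe sets, which lay at 31.3 for SubA, 88.1 for SubB and 194 for SubC. Between 47.0% and 69.1% of the probe sets of an array exceeded it. A gene's value is the mean ratio of its measured probe sets, with the standard deviation (SD) over them where there were at least 2. For a probe set above the floor on 1 array only, the signal over the floor is given as at least N-fold. As a measure of error, 22 control probe sets for mouse transcripts and repeats sat on all 3 array types above the floor, and the SD of their log2 ratio between array types had a median of 0.26 and ran from 0.09 to 0.54. Among 886 genes with exactly 2 measured probe sets on SubA, those 2 ratios differed by a median of 0.29 and by 1.07 at the 95th percentile. Log2 ratios of a size under 0.54, the largest of these SDs, are called within the spread below. A ratio outside that limit can still be smaller than 1.07, the 95th percentile of the difference between 2 probe sets of 1 gene.

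The cells carried the T cell genes of their label. On SubA the signal of Cd8a was 5882.7 in CM and 5133.8 in E/EM cells, and the 11 probe sets of the CD8 T cell markers summed to 50065 and 48552. Single markers differed more, with Cd5 at 856 and 391.5 and Cd3g at 3079.7 and 5083.7. The 3 adipocyte and hepatocyte probe sets, for cells rich in the genes described here, were all at or under the floor on both arrays. Macrophage, monocyte and neutrophil markers summed to 493.9 and 729.4 over 14 probe sets, 9 of them at or under the floor on both. Cd68 had 89.4 and 199.5, and the 4 measured genes of that list all had log2 ratios below 0. Dendritic cell markers summed to 477.9 and 821.1 over 4 probe sets. H2-Ab1 (211 in CM and 516.5 in E/EM cells), H2-Eb1 (50.1 and 117.4) and Cd74 (86.5 and 144.1) were lower in CM cells. Itgax, at 130.3 and 43.1, was higher. The helper T cell markers also split, with Cd4 at 131.7 and 49.3 and Zbtb7b at 19.8 and 239.5 on SubA. B cell markers summed to 545.1 and 516.6 over 7 probe sets, 2 of them at or under the floor on both. Fibroblast and endothelium markers summed to 671.5 and 710.4 over 8 probe sets, 3 of them at or under the floor on both. The part of these cells in the results below was not tested. In bulk RNA, fewer cells of a type and less RNA per cell cannot be told apart.

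Promoters are shown for Abcd3, Acadm, Acadl, Pex11a and Ppard, the 5 genes with the widest log2 ratios in size. The sequences are the 250 bases before the RefSeq start on GRCm38.p6, 5′ to 3′ on the gene's strand, which is the plus strand for Ppard and the minus strand for the others, at chr3:121815303-121815552 for Abcd3 (the upstream of 2 annotated starts), chr3:153944644-153944893 for Acadm, chr1:66863310-66863559 for Acadl, chr7:79743132-79743381 for Pex11a and chr17:28232504-28232753 for Ppard. Capitals mark matches on either strand to AGGTCA, the half-site bound by nuclear receptors such as the PPARs, to GGGCGG, the GC box, or to CCAAT.
Abcd3: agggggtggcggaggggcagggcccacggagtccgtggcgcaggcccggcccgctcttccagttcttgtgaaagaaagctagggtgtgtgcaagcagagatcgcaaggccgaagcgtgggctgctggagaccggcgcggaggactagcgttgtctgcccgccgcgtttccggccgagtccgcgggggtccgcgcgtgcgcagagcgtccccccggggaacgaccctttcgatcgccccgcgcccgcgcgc
Acadm: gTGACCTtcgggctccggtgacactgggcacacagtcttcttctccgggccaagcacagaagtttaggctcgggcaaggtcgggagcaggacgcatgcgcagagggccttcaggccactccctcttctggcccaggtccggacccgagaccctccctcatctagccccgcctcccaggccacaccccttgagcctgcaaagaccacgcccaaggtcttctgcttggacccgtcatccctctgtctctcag
Acadl: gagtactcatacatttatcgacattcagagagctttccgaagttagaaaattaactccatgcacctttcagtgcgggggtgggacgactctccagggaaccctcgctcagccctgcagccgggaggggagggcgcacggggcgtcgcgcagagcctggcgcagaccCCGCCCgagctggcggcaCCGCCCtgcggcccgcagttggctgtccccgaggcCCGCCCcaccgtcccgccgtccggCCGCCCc
Pex11a: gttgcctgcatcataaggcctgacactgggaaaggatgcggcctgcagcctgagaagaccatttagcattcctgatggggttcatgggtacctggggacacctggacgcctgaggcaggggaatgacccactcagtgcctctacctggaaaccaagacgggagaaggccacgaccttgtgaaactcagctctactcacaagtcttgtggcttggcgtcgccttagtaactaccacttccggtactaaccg
Ppard: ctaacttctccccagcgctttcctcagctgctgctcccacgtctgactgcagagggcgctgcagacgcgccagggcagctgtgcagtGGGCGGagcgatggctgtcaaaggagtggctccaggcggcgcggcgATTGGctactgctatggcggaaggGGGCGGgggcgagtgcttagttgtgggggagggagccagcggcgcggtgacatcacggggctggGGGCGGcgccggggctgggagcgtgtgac
Acadm held 1 AGGTCA match (read as TGACCT on the strand shown), Acadl held 4 GC boxes, Ppard held 3 GC boxes and 1 CCAAT match (read as ATTGG), and these letters were not in the windows of Abcd3 and Pex11a. RefSeq windows were at hand for 35 of the 42 genes. AGGTCA was found in 5 of their 39 windows (12.8%), those of Acadm, Acadvl, Cpt1a, Echs1 and Scp2, against 14.0% of 32841 windows of all genes, and the direct repeat AGGTCANAGGTCA in 0 of 39, against 0.0335%. GC boxes were in 64.1% of the windows against 32.7%, and CCAAT in 38.5% against 33.9%.

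Of the 42 genes, 36 had a measured ratio, 1 (Ppara) had a bound only, and 3 (Acadvl, Ehhadh and Ppargc1a) were at or under the floor on both arrays. Abcd3 alone was at least 2-fold higher in CM cells, 1 of 36, where 2.73% of 10946 measured genes were. At least 2-fold lower were 0 of 36, where 5.61% were. These counts leave out probe sets with a bound only. Among those, 1 of Pex11a was at least 4.33-fold lower and 1 of Pex13 at least 2.17-fold higher in CM cells. At 1.5-fold the counts were 4 higher and 4 lower, where 10.1% and 13.9% of all measured genes passed. The members divided evenly around 0, with 18 above and 18 below and a median of 0.00074, against -0.0025 for all measured genes. The mitochondrial median was -0.08 and the peroxisomal one 0.29.

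**Figure D1:**
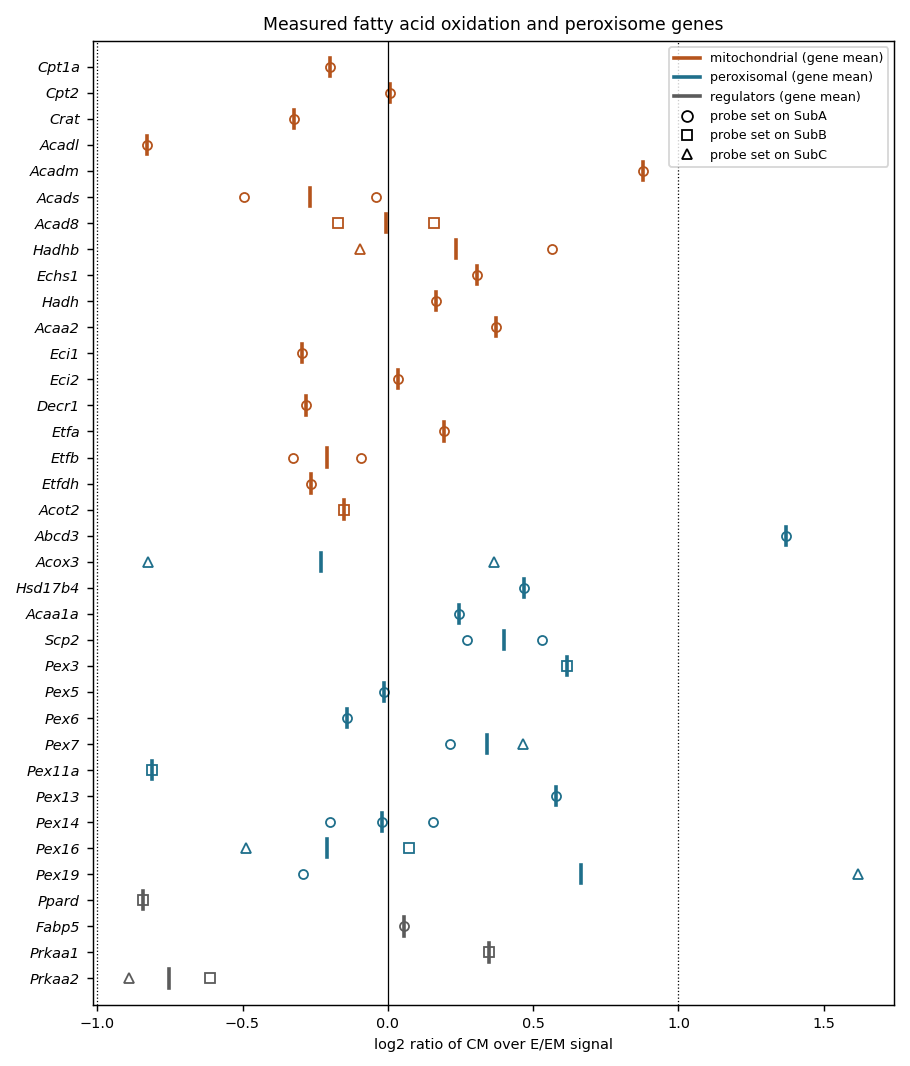
Log2 ratio (x axis, CM over E/EM) for the 36 measured genes (y axis). Open symbols are probe sets by array type, bars are gene means, and dotted lines mark 2-fold. Abcd3 is the only gene whose mean lies beyond a dotted line, and the probe sets of Pex19 lie far apart.

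Of 18 measured mitochondrial genes 0 passed 2-fold in either direction, a count near the background of 2.73% higher and 5.61% lower. Above 0 lay 8 genes and below it 10. Their SD over genes was 0.37, against 0.60 over all measured genes. The 2 sets of genes were not matched for signal or array type, and 22 of 29 mitochondrial probe sets with 1 symbol were on SubA. At 1.5-fold 1 gene was higher, where 10.1% of all measured genes were, and 1 lower, where 13.9% were. Both were acyl-CoA dehydrogenases.

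The acyl-CoA dehydrogenases, which open each round and differ in the chain length they prefer, lay on opposite sides of 0. Acadm, the medium-chain enzyme, had a signal of 1788.7 in CM and 974.0 in E/EM cells. Acadl, the long-chain enzyme, had 344.8 in CM and 612.5 in E/EM cells. The medium-chain transcript was thus 1.84-fold higher in CM cells (log2 ratio 0.88) and the long-chain one 1.78-fold lower (-0.83), each by 1 probe set on the same pair of SubA arrays. Only 3.97% of measured genes had a higher ratio than Acadm, and 8.01% a lower one than Acadl. The 2 ratios differed by 1.71 on the log2 scale. They are the highest and the lowest of the 18 measured mitochondrial genes, so this gap is the widest in that list and is given as a description. Acads, the short-chain enzyme, had -0.27 ± 0.32 (SD, 2 probe sets), within the spread. Acad8, which acts in valine breakdown, had -0.01 ± 0.23 (SD, 2 probe sets). The 2 probe sets of Acadvl, the very-long-chain enzyme, had signals from 1.4 to 5.0, under the floor of 31.3 in both kinds of cells, so its level was not detectable here.

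The enzymes of the later steps all lay slightly above 0. The mitochondrial trifunctional protein is built from Hadha and Hadhb, whose RefSeq starts lie 273 bases apart on opposite strands of chromosome 5. Hadhb, its thiolase subunit, had signals of 1805.1 and 1219.1 on SubA and 886.7 and 946.8 on SubC, and the probe sets disagreed in sign, with a mean of 0.24 ± 0.47 (SD, 2 probe sets). The thiolase Acaa2 had a signal of 5350.2 in CM and 4134.0 in E/EM cells, a log2 ratio of 0.37. Echs1, the short-chain enoyl-CoA hydratase, had 614.9 and 497.3 (0.31), and Hadh, the hydroxyacyl-CoA dehydrogenase, had 790.2 and 703.9 (0.17). The 4 measured genes of these steps lay between 0.17 and 0.37, within the spread.

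The carnitine shuttle lay within the spread, apart from 1 Crat probe set near the floor. Cpt1a, the liver-type carnitine palmitoyltransferase and the regulated entry step, had a signal of 1263.8 in CM and 1449.6 in E/EM cells, a log2 ratio of -0.20. Cpt2, on the inner membrane, had 509.7 and 507.1 (0.01). Crat, the carnitine acetyltransferase, had 75.8 and 94.8 on one SubA probe set (-0.32), and another gave 15.9 and 59.4, at least 1.90-fold lower in CM cells. The transcript of the enzyme that commits fatty acids to the mitochondrion was therefore well above the floor on both arrays and close to equal. Probe sets that carry the symbols Gm44502, Cpt1b and Chkb together had 11 and 124.6 on SubB and 656.9 and 173.2 on SubC. They gave opposite directions, at least 1.41-fold lower in CM cells on SubB and at least 3.38-fold higher on SubC, and are assigned to no single gene.

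The remaining mitochondrial genes lay between -0.30 and 0.19. Eci1 and Decr1, needed for unsaturated fatty acids, had log2 ratios of -0.30 and -0.28, and Eci2, an isomerase also found in peroxisomes, had 0.04. Etfa and Etfb, the subunits of the electron transfer flavoprotein, had 0.19 and -0.21 ± 0.17 (SD, 2 probe sets), and Etfdh, which passes the electrons to ubiquinone, had -0.26. Acot2, a thioesterase that releases free fatty acids, had signals of 1522.6 and 1688.7 on SubB (-0.15). All of these lay within the spread.

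Of 14 measured peroxisomal genes 8 were above 0 and 6 below, a share of 57.1% against 49.7% over all measured genes. Their median was 0.29, whose error was not measured. At 1.5-fold 3 were higher in CM cells, where 10.1% of all measured genes were, and 1 was lower, where 13.9% were. One of the 3, Pex19, has probe sets of opposite sign. The enzymes and the fatty acid importer had 4 of 5 above 0 and a median of 0.40, and the peroxins, most of the list, had 4 of 9 above 0 and a median of -0.01.

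Abcd3 had the widest log2 ratio in size among the measured gene values. It encodes PMP70, an abundant ABC transporter of the peroxisomal membrane that brings in fatty acids and bile acid precursors. Its signal was 728.2 in CM and 281.5 in E/EM cells. That is 2.59-fold higher in CM cells, a log2 ratio of 1.37 exceeded by 0.996% of measured genes. The weaker signal was far above the floor of 31.3, so the ratio was not limited by background. This ratio rests on 1 SubA probe set and is the widest gene value of the 36 measured members. A Pex11a probe set on SubA, which gave a bound only, was at least 4.33-fold lower in CM cells.

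**Figure D2:**
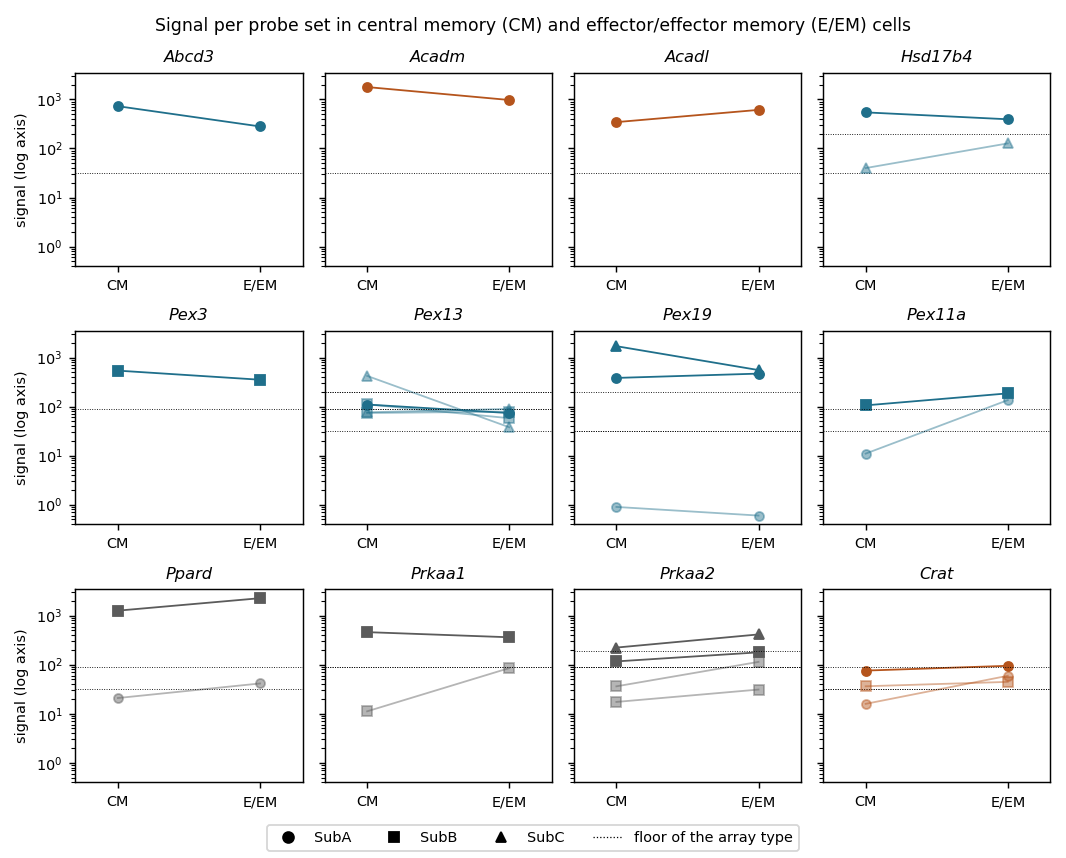
Signal (y axis, log scale) in CM and E/EM cells (x axis) for each probe set of 12 genes. Lines join the 2 arrays of 1 probe set, symbols give the array type, pale lines are probe sets not above the floor on both arrays, and dotted lines are the floors. Abcd3 and Acadm slope down from CM to E/EM cells and Acadl and Ppard slope up, all of them with a measured probe set well above its floor.

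The enzymes of the peroxisomal cycle differed by less, and each gene value was within the spread. Hsd17b4, the D-bifunctional protein, had signals of 544.9 and 394.1 (log2 ratio 0.47), while its SubC probe set was under the floor on both arrays. Scp2, whose long form is a thiolase for branched chains, had 872.7 and 723.0 on one SubA probe set and 1331.1 and 922.1 on the other, a mean of 0.40 ± 0.18 (SD, 2 probe sets). Acaa1a, the straight-chain thiolase, had 1337.0 and 1128.5 (0.24). These 3 genes were all higher in CM cells by less than 1.5-fold. Acox3, an oxidase of branched chains, had 942.1 and 731.2 on one SubC probe set and 324.0 and 574.1 on the other, so its mean of -0.23 ± 0.84 (SD, 2 probe sets) has no settled direction. Ehhadh, the L-bifunctional protein, stayed under the floor with 24.0 and 30.7.

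Among the peroxins, Pex3 and Pex13 lay just outside the spread on the higher side. Pex3, which starts the insertion of peroxisomal membrane proteins together with Pex16 and Pex19, had signals of 541.0 and 352.8 on SubB, 1.53-fold higher in CM cells (log2 ratio 0.62). Pex13, part of the docking complex for imported proteins, had 110.1 and 73.8 on SubA (0.58). Of its 5 probe sets this was the only 1 measured on both arrays, and its weaker signal was 2.36 times the floor. On SubB and SubC single Pex13 probe sets exceeded the floor in CM cells alone and gave at least 1.26-fold and at least 2.17-fold higher, while 2 further ones were under the floor on both arrays. Pex16 had -0.21 ± 0.40 (SD, 2 probe sets), and Pex14, the docking partner of Pex13, had -0.02 ± 0.18 (SD, 3 probe sets). Pex19 had 384.0 and 470.0 on SubA but 1703.5 and 555.1 on SubC, so its mean of 0.66 ± 1.35 (SD, 2 probe sets) has no settled direction.

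The receptors of peroxisomal import lay within the spread. Pex5, the receptor for the common C-terminal targeting signal, had signals of 296.2 and 298.8 (log2 ratio -0.01). Pex7, the receptor for the N-terminal signal, had 0.34 ± 0.18 (SD, 2 probe sets on 2 array types, both above 0), and Pex6, an ATPase that recycles Pex5, had -0.14.

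Pex11a lay on the opposite side. This gene, whose product promotes peroxisome division and which is a known PPAR alpha target in liver, had signals of 105.9 in CM and 185.9 in E/EM cells on SubB, 1.76-fold lower in CM cells (log2 ratio -0.81). On SubA it had 11 and 135.4, at least 4.33-fold lower. Both probe sets thus gave the same direction, although the CM signal on SubB was only 1.20 times the floor. With the SubA probe set counted at its bound the gene's value was -1.46, past 2-fold.

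The regulators were low or lower in CM cells, apart from Prkaa1 and Fabp5. Ppard, the nuclear receptor PPAR delta, had signals of 1263.0 in CM and 2266.7 in E/EM cells on SubB, 1.79-fold lower in CM cells (log2 ratio -0.84), and 7.75% of measured genes had a lower ratio. On SubA it had 20.9 and 41.4, at least 1.32-fold lower, and a SubC probe set that also carries the symbol 1810013A23Rik had -0.50. All 3 probe sets were lower in CM cells. Ppara, PPAR alpha, was near the floor with 40.4 and 27.7 on SubA, at least 1.29-fold higher in CM cells. Ppargc1a, the coactivator PGC-1 alpha, was under the floor in all 4 measurements, with signals from 10.2 to 30.1.

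The catalytic subunits of AMPK, the kinase that promotes fatty acid oxidation when energy is short, had gene values on opposite sides of 0. Prkaa1, which encodes the main catalytic subunit of T cells, had signals of 460.6 and 362.1 on 1 SubB probe set (log2 ratio 0.35), within the spread. Another Prkaa1 probe set on SubB was under the floor on both arrays, with 11.2 in CM and 85.2 in E/EM cells. Prkaa2 had 116.6 and 178.4 on SubB and 223.2 and 413.8 on SubC, a mean of -0.75 ± 0.20 (SD, 2 probe sets on 2 array types), and another SubB probe set gave at least 1.29-fold lower. In the measured Prkaa2 probe sets the CM signals were only 1.32 and 1.15 times the floor, and a further SubB probe set was under it on both arrays. Fabp5, the epidermal fatty acid binding protein, had 319.6 and 307.4 (0.06).

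Beyond the 42 genes, 71 further genes of the same pathways were examined, of which 49 had a measured ratio, 5 a bound only and 6 were at or under the floor, and 11 were not matched. None of the 49 was at least 2-fold higher and 2 were at least 2-fold lower, near the background of 2.73% and 5.61%, and 32 lay above 0 and 17 below, with a median of 0.12. The further peroxisomal genes had 12 of 16 above 0 and a median of 0.22, whose error was not measured. The further mitochondrial ones had 6 of 13 above 0 and a median of -0.08. With members and further genes together, 20 of 30 measured peroxisomal genes (66.7%) were above 0 with a median of 0.24. Of the mitochondrial genes 14 of 31 (45.2%) were above 0, with a median of -0.08 and a mean of 0.02. Over all measured genes 49.7% were above 0. Genes are not replicates, so these shares describe the arrays only.

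The highest of the further genes were Pex2, Pccb, Ppargc1b and Pex26. Pex2, a ubiquitin ligase subunit of the import machinery, had signals of 347.8 and 175.8 (log2 ratio 0.98). Pccb, a propionyl-CoA carboxylase subunit, had 260.1 and 145.2 (0.84), and Pex26, the membrane anchor of Pex6, had 360.2 and 212.6 (0.76). Ppargc1b, the coactivator PGC-1 beta, had 254.9 and 127.8 on SubB and 10759.7 and 7369.1 on SubC, a mean of 0.77 ± 0.32 (SD, 2 probe sets). Its E/EM signal on SubB was only 1.45 times the floor, and the 2 probe sets differed widely in level. At the other end Slc27a1, a fatty acid transport protein, had 59.1 and 190.5 on SubA and 750.0 and 1170.3 on SubB, a mean of -1.17 ± 0.74 (SD, 2 probe sets). Acacb, whose product makes the malonyl-CoA that inhibits the carnitine shuttle, had 185.3 and 391.7 (-1.08), and Stk11, the kinase that activates AMPK, and Acad10 both had -0.34. Acad9, a further acyl-CoA dehydrogenase, had -0.11 ± 0.14 (SD, 2 probe sets), and a SubC probe set with 70.7 and 413.3 gave at least 2.13-fold lower in CM cells. Pparg, PPAR gamma, had 2.0 and 146.3 on 1 SubA probe set, a bound of at least 4.68-fold lower in CM cells. Ppard was lower there too, while Ppara was near the floor and also had a bound only.

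**Figure D3:**
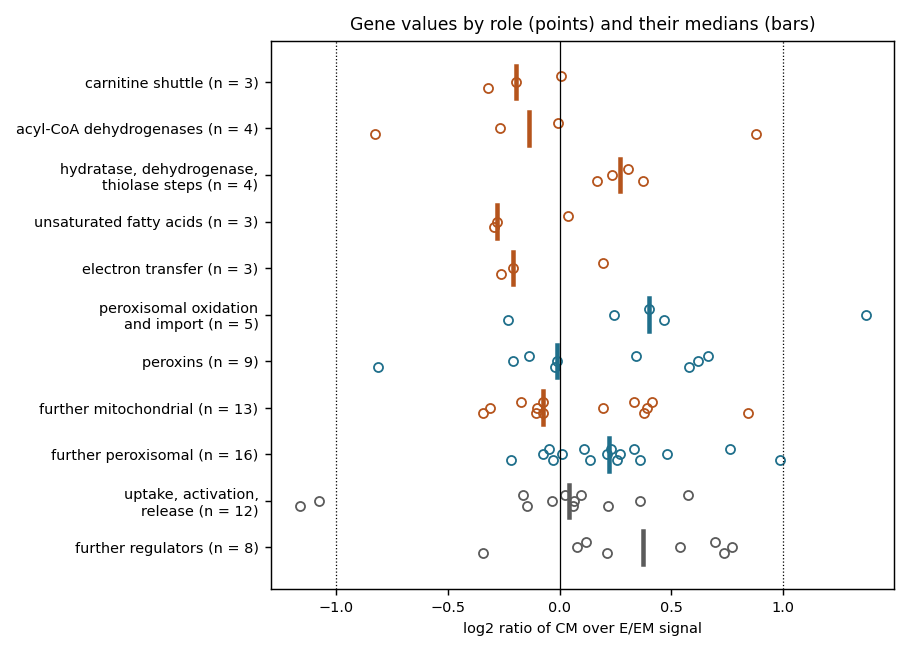
Log2 ratio (x axis, CM over E/EM) for the measured genes of each role (y axis, n genes), with points for genes, thick bars for medians and dotted lines at 2-fold; spread of points within a row has no meaning. The medians of peroxisomal oxidation and import (0.40) and the further peroxisomal genes (0.22) lie to the right of 0, and those of the peroxins (-0.01) and the further mitochondrial genes (-0.08) near it.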

How the data were processed

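Total RNA of sorted, cultured CD8+ T cells was measured on 6 arrays, 1 for each of 2 kinds of cells and 3 array types, per the labels. The authors deposited linear intensities, 1 per probe set. The sources used here do not name the software or steps behind them. Without its lowest and highest 2%, each array had a mean between 500.1 and 500.3, as scaling to 1 target gives, so no further normalization was applied.

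Symbols were those of the platform annotation in GEO. Of the probe sets with 1 symbol, 29110 were found by Entrez identifier in a RefSeq table, which changed 0 symbols. Probe sets with several symbols were kept apart. For each array the 90th percentile of 15 bacterial poly-A control probe sets was taken, and the higher of the pair was the floor of that table. A gene's value was the mean log2 ratio over measured probe sets, genes were counted at 2-fold, and no test was made. All members were accounted for; of the further genes the 4 highest and 4 lowest and any bound past 2-fold were named. The members and lists were chosen with earlier results of these data known. Alternatives covered normalization, floor, probe sets, array types and the rule of size. Calculations (Python 3.11.15, pandas 2.3.3, numpy 2.4.6) were tested on simulated data. The number of arrays limits the precision.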

Additional observations from a re-analysis of the deposited data

How the results depend on the processing

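Over 11 alternatives the peroxisomal median stayed between 0.22 and 0.42 and that of the further genes between 0.10 and 0.17. The mitochondrial median ran from -0.10 to 0.04 and was above 0 only with the floor at the 60th percentile. The regulator median, over at most 5 genes, was 0.056 in place of -0.35 with the floor halved, doubled or at the 60th percentile, with SubA alone, and with bounded probe sets at their bound, an alternative added after the data were seen, since the middle gene then changes.

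For genes past 2-fold in CM cells, the mitochondrial count of 0 lower became 1 with the floor halved (Crat, at -1.11). At that setting 948 of all 12428 measured genes were lower. The peroxisomal count of 1 higher became 2 when each gene was represented by its brightest probe set, where 435 of all 10946 genes were higher. It became 0 at 3-fold, where 61 of 10946 were. The count of 0 lower became 1 with bounded probe sets at their bound (Pex11a), where 827 of 12529 were. Further genes had 1 higher in place of 0 after quantile normalization, where 362 of all 10987 genes were higher. The same held without shared probe sets, where 283 of 9943 were. The further genes' count of 2 lower became 1 after quantile normalization, with the floor doubled and with SubA alone. Over all genes 548 of 10987, 385 of 9348 and 256 of 5885 were lower at these settings. It became 0 with the floor at the 60th percentile, where 270 of 7859 were lower, and at 3-fold, where 169 of 10946 were. The 1.5-fold rule gave 1 higher and 1 lower mitochondrial gene, 3 and 1 peroxisomal genes, 0 and 2 regulators, and 6 and 2 further genes. Over all measured genes 10.1% were higher and 13.9% lower at that rule.

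The sign of the gene value held under every alternative that gave one for 16 of 18 mitochondrial, 10 of 14 peroxisomal, 4 of 4 regulator and 36 of 49 further genes. Abcd3 stayed between 1.35 and 1.37, Acadm between 0.85 and 0.88, Acadl between -0.85 and -0.83, and Ppard between -0.91 and -0.62. These ranges vary the processing of the same arrays and do not stand in for replicates. No paired analysis was possible because each group holds 1 array per array type.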
